A study of Mus musculus with 6 samples.

Results

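The 10 genes described here encode antioxidant and NADPH-generating proteins that are known targets of the transcription factor NRF2: Slc7a11, Gclc, Gclm, Gsta4, Txnrd1, Srxn1, Nqo1, Hmox1, Pgd and G6pdx. They were taken by symbol from a count table of 46078 Ensembl genes and from the authors' RPKM table of 13600 rows, and all 10 were found in both. Levels are given as CPM, reads per 1000000 after TMM scaling. The filter on low values, a mean of 1 CPM or more, left 12078 genes for testing by size, all 10 members among them. RNA came from MLE12, an immortalized mouse lung epithelial line grown to a monolayer. There were 6 libraries, 1 per group: the Lingo1 KO, Lingo2 KO, Lingo3 KO and TROY KO lines, each 24 hours after a scratch with a pipet tip, the wild-type parental line 24 hours after the scratch, and the same parental line without a scratch. LINGO proteins are leucine-rich repeat receptors best known from neurons, and TROY is a receptor of the tumour necrosis factor family. How the knockouts were made, and whether each line is 1 clone, is not stated in the labels.

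NRF2, encoded by Nfe2l2, is held at a low protein level by KEAP1, an adaptor of the CUL3 ubiquitin ligase that senses oxidants and electrophiles. When KEAP1 is modified, NRF2 accumulates, pairs with a small MAF protein and binds antioxidant response elements near its targets. BACH1 competes for the same elements. In lung epithelium, which meets inhaled oxygen and toxicants, the targets supply glutathione, thioredoxin and NADPH and detoxify quinones and lipid aldehydes.

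No group had a second library, so no p-value is given and no difference could be held against the spread between cultures. The 4 knockout comparisons share 1 parental library, and line, clone and culture cannot be told apart from genotype. All 4 knockout libraries were scratched, so a fold over the unscratched parental library holds both the line and the scratch. Each level has a 95% Poisson interval and each fold a 95% Clopper-Pearson interval conditional on the summed counts, both covering counting error only. A gene is called higher or lower when its fold was 2 or more in that direction and its whole interval lay past 1.5-fold. A looser 1.5-fold rule, with the whole interval past 1.2-fold, is named where it is used. In bulk RNA, fewer cells of a type and less RNA per cell cannot be told apart. Between 28109825 and 30776294 reads per library were counted in genes. Lingo1, the target of 1 knockout, stood at 57.0, 52.0, 51.3 and 34.7 CPM in the libraries labelled Lingo1, Lingo2, Lingo3 and TROY KO, against 24.5 CPM in the scratched and 27.6 CPM in the unscratched parental library. Its transcript level thus went against the label Lingo1 KO, although a count over the whole gene does not test whether a protein is made. Lingo2 had 0 counts in every library, Lingo3 had 1 in all and Tnfrsf19, which encodes TROY, had 13 in all, so these knockouts could not be checked by transcript level. Libraries are therefore named by their labels, and a direction in a knockout is that of the library so labelled. Of 11 lung epithelial markers 7 were measured, while Krt18, Cldn4, Sftpa1 and Sftpd fell below the filter. The summed level of all 11 was 3034 to 3375 CPM in the 4 knockout libraries, against 2274 CPM in the scratched and 2486 CPM in the unscratched parental library. Of the 7 measured, 2, 3, 3 and 1 were higher in the libraries labelled Lingo1, Lingo2, Lingo3 and TROY KO than in the scratched parental library. Beside this list and the other marker list below, 3.62%, 3.50%, 7.19% and 2.24% of all tested genes passed, in either direction, in those libraries. The surfactant gene Sftpb, higher in all 4, stood at 164, 144, 164 and 87.0 CPM in those libraries, against 35.6 CPM in the scratched and 40.1 CPM in the unscratched parental library. Sftpc, at 40.7, 42.0, 81.9 and 19.9 CPM, against 18.3 CPM in the scratched and 16.5 CPM in the unscratched parental library, was higher in the first 3 of them, and the adhesion gene Epcam in the Lingo2 KO and Lingo3 KO libraries. Nkx2-1, the lung lineage factor, had 164, 182, 205 and 174 CPM in the knockout libraries, against 160 CPM in the scratched and 191 CPM in the unscratched parental library, and the surfactant genes Sftpa1 and Sftpd were at or near 0 throughout. Of 15 markers of other cell types 6 were measured, of which 2, 2, 3 and 2 were higher in the libraries labelled Lingo1, Lingo2, Lingo3 and TROY KO than in the scratched parental library, and the leukocyte gene Ptprc had at most 0.108 CPM. The summed level of those 15 was 1443 to 1728 CPM in the 4 knockout libraries, against 933 CPM in the scratched and 1012 CPM in the unscratched parental library, most of it the intermediate filament gene Vim. The fibroblast collagen gene Col1a1 stood at 170, 136, 398 and 146 CPM in the libraries labelled Lingo1, Lingo2, Lingo3 and TROY KO, against 44.8 CPM in the scratched and 62.3 CPM in the unscratched parental library. Pdgfrb, a receptor of pericytes and fibroblasts, had 52, 37, 348 and 13 counts in the libraries labelled Lingo1, Lingo2, Lingo3 and TROY KO, against 1 count in the scratched and 3 counts in the unscratched parental library. Pdgfra, a fibroblast receptor, was higher in the Lingo3 KO at 3.91-fold. Reads outside annotated genes also differed by group, at 5.44%, 6.41%, 4.98% and 6.2% in the libraries labelled Lingo1, Lingo2, Lingo3 and TROY KO, against 8.02% in the scratched and 7.80% in the unscratched parental library. The part of these markers and reads in the results below was not tested.

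RefSeq promoter windows on GRCm38.p6 (250 bases before to 50 after a gene start) were available for 7 of the 10 members, in 10 windows. Gsta4, Gclc and Hmox1 had none and are named only. The core of the antioxidant response element, TGACNNNGC on either strand, occurred in windows of 5 of these 7 genes (Srxn1, Gclm, Pgd, Txnrd1 and G6pdx), and in 14.0% of all 27025 genes in the table. For Pgd it occurred only in the window of a start inside the gene, where it may be coding sequence. By window, 5 of the 10 held it, against 12.4% of all 32851 windows. The members were taken as known NRF2 targets, so a higher share among them is not an independent result. With TGAGNNNGC also allowed, a choice made after the first search, 6 of the 7 genes held a match, against 30.8% of all genes. The additional gene was Slc7a11, and Nqo1 had no match in its window, which says only that these letters are not there. The AP-1 core TGANTCA, which can overlap the element, occurred in the window of Srxn1 alone and in 8.97% of all genes. The windows of 3 members are printed 5′ to 3′ on the gene's strand, because Srxn1 and Pgd had the largest folds among members with a window and Gclm codes for an enzyme subunit whose partner had folds on the other side of 1. Capitals mark TGACNNNGC or TGAGNNNGC on either strand.
Srxn1 (chr2:152105274-152105573, plus strand): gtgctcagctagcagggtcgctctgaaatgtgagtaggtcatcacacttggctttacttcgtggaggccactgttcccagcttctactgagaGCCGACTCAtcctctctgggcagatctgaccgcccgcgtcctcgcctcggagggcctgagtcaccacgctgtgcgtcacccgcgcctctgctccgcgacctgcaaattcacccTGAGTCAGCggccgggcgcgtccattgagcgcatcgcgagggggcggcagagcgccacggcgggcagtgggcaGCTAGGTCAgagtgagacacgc
Gclm (chr3:122245307-122245606, plus strand): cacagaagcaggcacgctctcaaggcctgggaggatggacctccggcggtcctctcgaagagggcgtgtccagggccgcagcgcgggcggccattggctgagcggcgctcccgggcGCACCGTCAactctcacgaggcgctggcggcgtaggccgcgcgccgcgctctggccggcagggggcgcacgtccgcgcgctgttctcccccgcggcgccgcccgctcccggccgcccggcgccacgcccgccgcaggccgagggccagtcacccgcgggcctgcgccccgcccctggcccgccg
Pgd (chr4:149166033-149166332, minus strand): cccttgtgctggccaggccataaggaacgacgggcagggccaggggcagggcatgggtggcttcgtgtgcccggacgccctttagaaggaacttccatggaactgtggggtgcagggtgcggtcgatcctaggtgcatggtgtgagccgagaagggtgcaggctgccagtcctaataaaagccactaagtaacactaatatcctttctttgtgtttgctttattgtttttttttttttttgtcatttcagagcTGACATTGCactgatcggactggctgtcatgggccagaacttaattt
In the Srxn1 window, TGACCTAGC lies on the reverse strand from 29 to 37 bases into the gene. TGAGTCAGC, from -45 to -37 relative to the start, contains an AP-1 core, a further AP-1 core lies from -102 to -96, and TGAGTCGGC is on the reverse strand from -158 to -150. The Gclm match, TGACGGTGC, lies on the reverse strand from -134 to -126. Pgd has 2 annotated starts, and the window of the more upstream one (chr4:149166656-149166955) held no match. The match TGACATTGC is in the window of the more downstream start, from 4 to 12 bases after it. That start lies inside the annotated gene. In the frame starting 2 bases before the match, the printed letters run to the window's end without a stop codon. The match may thus be coding sequence rather than a promoter element, which was not tested. A match describes these letters and does not show binding.

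Between genes, levels are compared as RPKM from the authors' deposited table, which takes gene length into account. In the scratched parental library Txnrd1 had the highest RPKM of the members at 161, followed by Nqo1 at 68.4, Pgd at 63.7, Gclc at 52.6, Hmox1 at 49.25, Srxn1 at 45.9, G6pdx at 38.3, Gsta4 at 23.3, Gclm at 13.9 and Slc7a11 at 1.94. With 1 library, whether close neighbours in this order, such as Nqo1 and Pgd or Hmox1 and Srxn1, differ beyond the spread between cultures could not be assessed.

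The 10 members did not share 1 pattern. In 7 of them (Slc7a11, Gclm, Gsta4, Srxn1, Nqo1, Pgd and G6pdx) all 4 knockout libraries stood above both parental libraries, as in 24.2% of all tested genes, G6pdx no longer doing so with total counts as the scaling. In Gclc and Hmox1 all 4 knockout libraries stood below both parental libraries, as in 21.9% of tested genes, and Txnrd1 overlapped. The Lingo3 KO library had the highest level of 8 members, against 25.3% of tested genes. The unscratched parental library had the lowest level of 5, against 16.5% of tested genes. The ratio of the highest to the lowest of the 6 libraries ran from 1.14 for Txnrd1 to 2.26 for Gsta4.

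**Figure D1:**
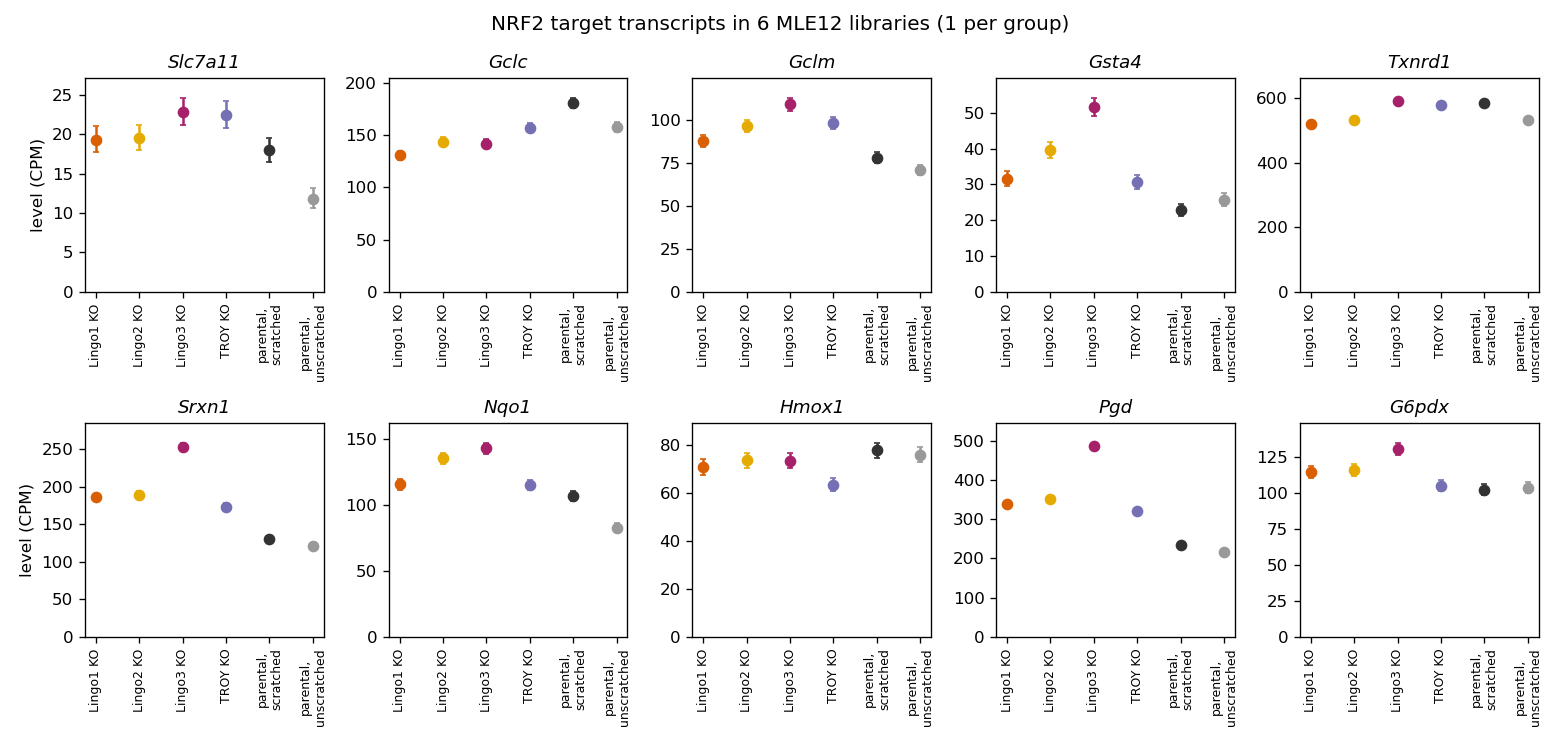
Level of each of the 10 genes in CPM (vertical axis from 0) in the 6 libraries, 1 point per library with its 95% Poisson interval; the 4 knockout libraries and the scratched parental library were taken 24 hours after the scratch. Srxn1, Pgd and Gsta4 are highest in the Lingo3 KO library (253, 488 and 51.6 CPM), while Gclc is lower in all 4 knockout libraries than in both parental libraries and Txnrd1 varies by a ratio of 1.14.

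The glutathione-supply genes come first in the pathway. Slc7a11 (ENSMUSG00000027737, chromosome 3, 49892526 to 50443614, minus strand, GRCm38 here and below) encodes xCT, the cystine importer that feeds glutathione synthesis. Its level was 19.3 CPM in the library labelled Lingo1 KO, 19.5 in the Lingo2 KO, 22.9 in the Lingo3 KO and 22.4 in the TROY KO library, against 18.0 CPM in the scratched parental library and 11.8 CPM in the unscratched one. The unscratched parental library was the low one, and the Poisson intervals of the libraries labelled Lingo1 KO and Lingo2 KO overlapped that of the scratched parental library. Scratched over unscratched, the parental fold was 1.52 (1.32 to 1.75), short of the 2-fold rule. Of the members, Slc7a11 had the largest fold after the scratch. Over the scratched parental library its folds were 1.07 (0.951 to 1.21), 1.09 (0.963 to 1.22), 1.27 (1.14 to 1.42) and 1.25 (1.11 to 1.40) in the libraries labelled Lingo1, Lingo2, Lingo3 and TROY KO, none past the rule.

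Glutamate-cysteine ligase, the rate-limiting enzyme of glutathione synthesis, has a catalytic subunit, Gclc, and a modifier subunit, Gclm, and the folds of the 2 transcripts lay on opposite sides of 1 in all 4 knockouts. Gclc (ENSMUSG00000032350, chromosome 9, 77754535 to 77794485) stood at 131, 144, 142 and 157 CPM in the libraries labelled Lingo1, Lingo2, Lingo3 and TROY KO, against 181 CPM in the scratched and 158 CPM in the unscratched parental library. Its folds over the scratched parental library were 0.723 (0.693 to 0.754), 0.795 (0.763 to 0.828), 0.784 (0.753 to 0.816) and 0.869 (0.835 to 0.903) for the libraries labelled Lingo1, Lingo2, Lingo3 and TROY KO, none past the rule. The TROY KO library and the unscratched parental library, at 157 and 158 CPM, had overlapping intervals. Gclm (ENSMUSG00000028124, chromosome 3, 122245557 to 122270732) stood at 88.1, 96.6, 109 and 98.4 CPM in the same 4 knockout libraries, against 78.0 CPM in the scratched and 70.9 CPM in the unscratched parental library. All 4 knockout libraries were above both parental libraries, with the Lingo3 KO the highest at a fold of 1.40 (1.33 to 1.48) over the scratched parental library, short of the rule. Of the 50-base words of Gclm, 3.92% also occur in other genes, Ppia first. These genes include Gm6061, a transcribed processed pseudogene that overlaps Gclm on the same strand, so part of the Gclm counts is uncertain.

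A ratio of 2 genes inside 1 library does not depend on the scaling of libraries, so it was taken for 5 pairs. Gclm counts over Gclc counts were 0.673, 0.671, 0.770 and 0.625 in the libraries labelled Lingo1, Lingo2, Lingo3 and TROY KO, against 0.431 (0.411 to 0.452) in the scratched and 0.449 (0.426 to 0.473) in the unscratched parental library. The knockout libraries did not overlap the parental ones, and the parental intervals overlapped each other. Relative to the scratched parental library the ratio was 1.56 (1.45 to 1.68) in the library labelled Lingo1 KO, 1.56 (1.45 to 1.67) in the Lingo2 KO, 1.79 (1.67 to 1.91) in the Lingo3 KO and 1.45 (1.36 to 1.55) in the TROY KO, and 1.04 (0.969 to 1.12) in the unscratched parental library. These intervals are exact and conditional, for counting error only, and do not cover the words that Gclm shares with other genes. Slc7a11 counts over those of Slc3a2, the heavy chain that carries xCT to the membrane, stood at 0.133, 0.127, 0.176 and 0.154 in the libraries labelled Lingo1, Lingo2, Lingo3 and TROY KO, against 0.115 in the scratched and 0.0795 in the unscratched parental library. The intervals of the libraries labelled Lingo1 KO (0.122 to 0.146) and Lingo2 KO (0.116 to 0.139) overlapped that of the scratched parental library (0.105 to 0.126).

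**Figure D2:**
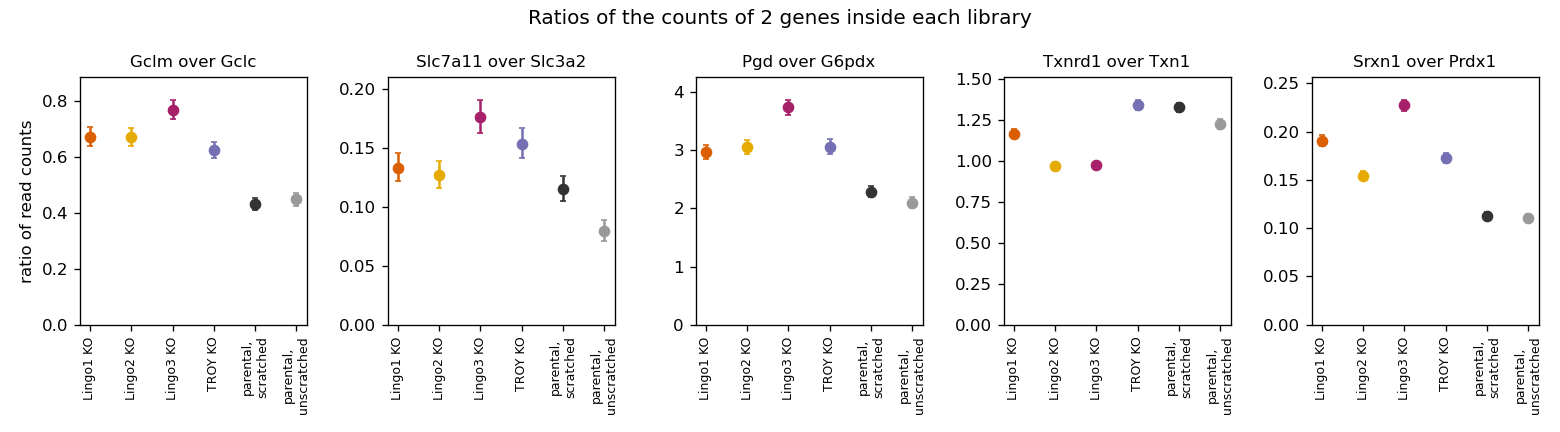
Ratio of the read counts of 2 genes (vertical axis from 0) within each of the 6 libraries, for 5 pairs, with 95% Clopper-Pearson intervals. Gclm over Gclc, Slc7a11 over Slc3a2, Pgd over G6pdx and Srxn1 over Prdx1 are above both parental values in all 4 knockout libraries, and Txnrd1 over Txn1 is lowest in the Lingo2 and Lingo3 KO libraries at 0.970 and 0.975. For Slc7a11 over Slc3a2 the intervals of the libraries labelled Lingo1 and Lingo2 KO overlap that of the scratched parental library.

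Gsta4 (ENSMUSG00000032348, chromosome 9, 78182774 to 78209349) encodes a glutathione transferase that conjugates 4-hydroxynonenal, an aldehyde of lipid peroxidation. Its level was 31.6, 39.6, 51.6 and 30.6 CPM in the libraries labelled Lingo1, Lingo2, Lingo3 and TROY KO, against 22.9 CPM in the scratched and 25.7 CPM in the unscratched parental library. The Lingo3 KO library was the highest and the Lingo2 KO next, and no knockout library overlapped a parental one. Gsta4 was higher in the Lingo3 KO, at 2.26-fold (2.06 to 2.47), and also against the unscratched parental library, at 2.01-fold (1.84 to 2.19). The folds were 1.38 (1.25 to 1.53) in the library labelled Lingo1 KO, 1.73 (1.57 to 1.90) in the Lingo2 KO and 1.34 (1.21 to 1.48) in the TROY KO. Directly compared, the Lingo3 KO level was 1.63 (1.5 to 1.77) times that of the library labelled Lingo1 KO, 1.3 (1.21 to 1.41) times that of the Lingo2 KO and 1.69 (1.55 to 1.83) times that of the TROY KO.

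Txnrd1 (ENSMUSG00000020250, chromosome 10, 82833951 to 82897712) encodes thioredoxin reductase, which spends NADPH to keep thioredoxin reduced. It stood at 520, 531, 592 and 578 CPM in the libraries labelled Lingo1, Lingo2, Lingo3 and TROY KO, against 585 CPM in the scratched and 531 CPM in the unscratched parental library. The knockout and parental values overlapped, and no fold in the 5 comparisons lay outside 0.889 to 1.1. Its substrate thioredoxin, Txn1, had folds of 1.01 (0.986 to 1.04), 1.24 (1.21 to 1.27), 1.38 (1.35 to 1.41) and 0.976 (0.953 to 1) in the libraries labelled Lingo1, Lingo2, Lingo3 and TROY KO. Txnrd1 counts over Txn1 counts were therefore 1.17, 0.970, 0.975 and 1.34 in those libraries, against 1.33 in the scratched and 1.23 in the unscratched parental library. The protein-coding gene Eid3 overlaps Txnrd1 on the same strand.

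Srxn1 (ENSMUSG00000032802, chromosome 2, 152105516 to 152111376) encodes sulfiredoxin, which repairs overoxidized peroxiredoxins. Its level was 186, 189, 253 and 173 CPM in the libraries labelled Lingo1, Lingo2, Lingo3 and TROY KO, against 130 CPM in the scratched and 120 CPM in the unscratched parental library. All 4 knockout libraries were above both parental libraries, the Lingo3 KO by the most. In the Lingo3 KO the fold was 1.95 (1.87 to 2.02) over the scratched parental library, just short of the rule, and 2.10 (2.01 to 2.18) over the unscratched one, past it. The other folds over the scratched parental library were 1.43 (1.37 to 1.49) in the library labelled Lingo1 KO, 1.45 (1.39 to 1.52) in the Lingo2 KO and 1.33 (1.28 to 1.39) in the TROY KO. Prdx1, a peroxiredoxin that sulfiredoxin repairs, had folds of 0.845 (0.831 to 0.858), 1.06 (1.04 to 1.08), 0.962 (0.948 to 0.977) and 0.868 (0.855 to 0.882) in the 4 knockouts in the same order. Srxn1 over Prdx1 counts were 2.02 (1.94 to 2.11) times the scratched parental ratio in the Lingo3 KO, 1.69 (1.62 to 1.77) times in the library labelled Lingo1 KO, 1.54 (1.47 to 1.61) times in the TROY KO and 1.37 (1.31 to 1.43) times in the Lingo2 KO. Of the 50-base words in the Prdx1 transcripts, 8.29% also occur in other genes, so its counts are uncertain.

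Nqo1 (ENSMUSG00000003849, chromosome 8, 107388225 to 107403206) encodes the quinone reductase most often used as an NRF2 reporter gene. It stood at 115, 135, 143 and 115 CPM in the libraries labelled Lingo1, Lingo2, Lingo3 and TROY KO, against 107 CPM in the scratched and 82.5 CPM in the unscratched parental library. The unscratched parental library was the lowest of the 6. The fold after the scratch was 1.3 (1.23 to 1.37). Over the scratched parental library the folds were 1.08 (1.03 to 1.14), 1.27 (1.21 to 1.33), 1.34 (1.28 to 1.40) and 1.07 (1.02 to 1.13) in the libraries labelled Lingo1, Lingo2, Lingo3 and TROY KO, none past the rule.

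Hmox1 (ENSMUSG00000005413, chromosome 8, 75093621 to 75100589) encodes heme oxygenase 1, which degrades heme and is repressed by BACH1. Its level was 70.7, 73.5, 73.4 and 63.4 CPM in the libraries labelled Lingo1, Lingo2, Lingo3 and TROY KO, against 77.7 CPM in the scratched and 75.9 CPM in the unscratched parental library. The TROY KO library was the lowest, with a fold of 0.816 (0.768 to 0.867), and the intervals of the Lingo2 and Lingo3 KO libraries overlapped those of both parental libraries, that of the library labelled Lingo1 KO the unscratched one only. The fold after the scratch was 1.02 (0.966 to 1.09).

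The members that make NADPH are the dehydrogenases of the oxidative pentose phosphate pathway. G6pdx (ENSMUSG00000031400, chromosome X, 74409483 to 74429194) encodes glucose-6-phosphate dehydrogenase, the first step. It stood at 114, 116, 131 and 105 CPM in the libraries labelled Lingo1, Lingo2, Lingo3 and TROY KO, against 102 CPM in the scratched and 104 CPM in the unscratched parental library. The TROY KO interval overlapped both parental intervals, and the largest fold was 1.28 (1.22 to 1.34) in the Lingo3 KO. The retrogene G6pd2 shares 6.46% of the 50-base words of G6pdx and had at most 5 counts in a library, and Ikbkg overlaps G6pdx on the opposite strand. Pgd (ENSMUSG00000028961, chromosome 4, 149149991 to 149166771) encodes 6-phosphogluconate dehydrogenase, which makes the next NADPH of the pathway.

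Pgd stood at 340, 353, 488 and 321 CPM in the libraries labelled Lingo1, Lingo2, Lingo3 and TROY KO, against 234 CPM in the scratched and 218 CPM in the unscratched parental library. All 4 knockout libraries were above both parental ones, and the Lingo3 KO was the highest. Pgd was higher in the Lingo3 KO, at 2.09-fold (2.03 to 2.15), and at 2.24-fold (2.18 to 2.31) against the unscratched library, and with total counts as the scaling its fold over the scratched library was 1.99, short of the rule. The folds were 1.45 (1.41 to 1.5) in the library labelled Lingo1 KO, 1.51 (1.47 to 1.56) in the Lingo2 KO and 1.37 (1.33 to 1.42) in the TROY KO. Pgd counts over G6pdx counts were 2.98, 3.05, 3.74 and 3.06 in the libraries labelled Lingo1, Lingo2, Lingo3 and TROY KO, against 2.29 in the scratched and 2.10 in the unscratched parental library. Relative to the scratched parental library the ratio was between 1.3 (1.23 to 1.38) in the library labelled Lingo1 KO and 1.63 (1.55 to 1.73) in the Lingo3 KO.

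**Figure D3:**
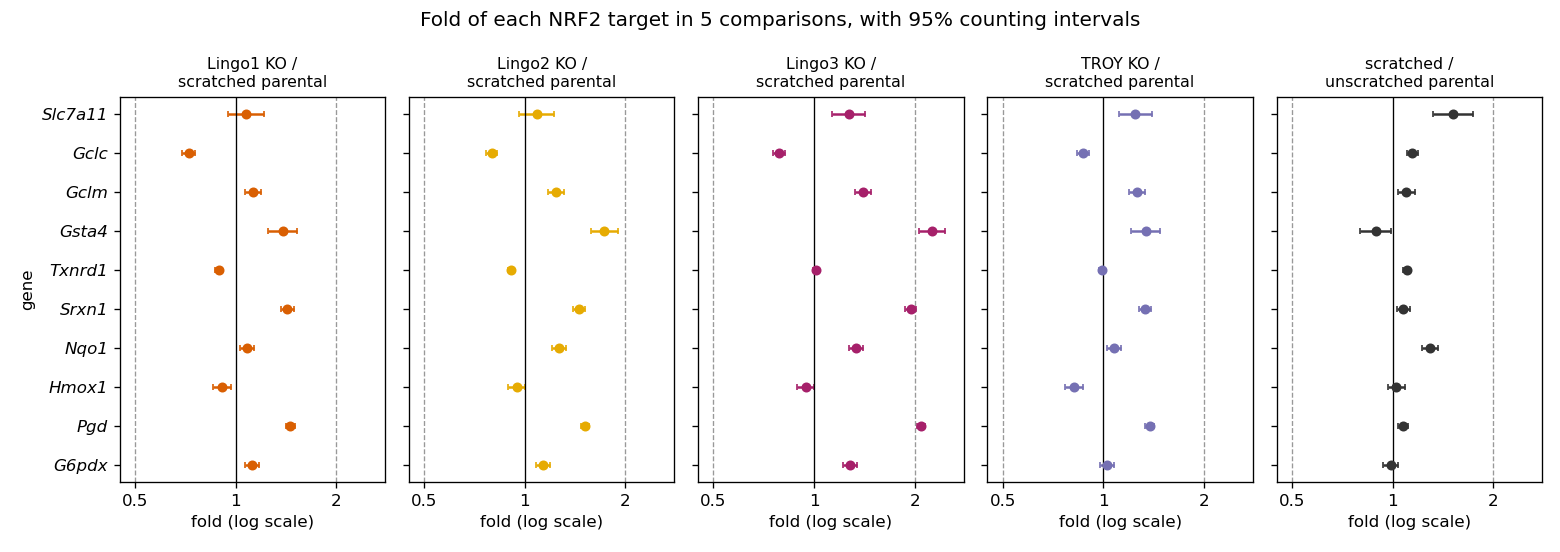
Fold of each of the 10 genes (horizontal axis, log scale) with its 95% counting interval in 5 comparisons: the 4 knockout libraries over the scratched parental library, and the scratched over the unscratched parental library. Solid lines mark 1 and dashed lines 0.5 and 2; Gsta4 at 2.26 and Pgd at 2.09 in the Lingo3 KO are the folds beyond 2, and Gclc lies below 1 in all 4 knockouts.

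Counted over the whole set, 2 of 10 members were higher in the Lingo3 KO and none lower, where 7.19% of tested genes passed the rule in either direction and 4.63% were higher. No member passed in the library labelled Lingo1 KO (3.62% of tested genes), the Lingo2 KO (3.50%), the TROY KO (2.24%) or after the scratch (0.0828%). Under the 1.5-fold rule 3 members were higher in the Lingo3 KO (Gsta4, Pgd and Srxn1), where 17.9% of tested genes passed and 10.6% were higher. Under it 2 passed in the Lingo2 KO (Gsta4 and Pgd; 10% of tested genes), none in the library labelled Lingo1 KO (10.3%) or the TROY KO (7.63%), and Slc7a11 after the scratch (0.472%). Against the unscratched parental library 3 members passed the 2-fold rule in the Lingo3 KO, Gsta4, Pgd and Srxn1, where 6.85% of tested genes did. That comparison also holds the scratch. The median log2 fold of the members was 0.14, 0.24, 0.39 and 0.21 in the libraries labelled Lingo1, Lingo2, Lingo3 and TROY KO and 0.12 after the scratch, where that of all tested genes was 0.01, 0.02, 0.01, 0.02 and -0.01. Between knockouts, no member passed the 2-fold rule for the Lingo3 KO over any other. Under the 1.5-fold rule Gsta4 passed over the library labelled Lingo1 KO (4.49% of tested genes), none over the Lingo2 KO (4.77%), and Gsta4 and Pgd over the TROY KO (7.16%), Pgd at 1.52 (1.48 to 1.56).

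None of the 10 genes of the NRF2 machinery passed the rule in any of the 5 comparisons. The share of all tested genes that passed was 0.0828% after the scratch and 2.24% to 7.19% in the knockouts. The folds of the 10 lay between 0.742 for Mafg and 1.33 for Mafk, both in the library labelled Lingo1 KO. Nfe2l2, which encodes NRF2 itself, stood at 610, 669, 724 and 580 CPM in the libraries labelled Lingo1, Lingo2, Lingo3 and TROY KO, against 606 CPM in the scratched and 636 CPM in the unscratched parental library. Its fold was 1.19 (1.17 to 1.22) in the Lingo3 KO and 0.957 (0.937 to 0.977) in the TROY KO. Keap1 stood at 70.2, 67.8, 71.7 and 71.3 CPM in the knockout libraries in the same order, against 71.2 CPM in the scratched and 75.5 CPM in the unscratched parental library.

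Of the partners and competitors of NRF2, Bach1, the repressor, had a fold of 0.834 (0.792 to 0.878) in the Lingo3 KO and 1.01 (0.957 to 1.06) in the TROY KO. Of the small MAF partners, Mafg had folds of 0.742 (0.710 to 0.776), 0.754 (0.721 to 0.787), 0.766 (0.734 to 0.800) and 0.846 (0.811 to 0.882) in the libraries labelled Lingo1, Lingo2, Lingo3 and TROY KO, while Mafk had 1.33 (1.25 to 1.43), 1.25 (1.17 to 1.34), 1.23 (1.15 to 1.32) and 1.16 (1.08 to 1.24). Maff had folds between 0.888 and 1.05 in the 4 knockouts. Nfe2l1, a relative of NRF2 that responds to proteasome stress, had folds between 1.17 and 1.25 in the 4 knockouts and 0.909 after the scratch. Cul3, the ligase scaffold, had folds between 0.972 and 1.1 in the 4 knockouts, its RING partner Rbx1 between 0.769 and 0.946, and Sqstm1, which sequesters KEAP1, between 0.982 and 1.11. NRF2 is controlled mainly through its protein, which was not measured.

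Of 20 other glutathione and thioredoxin genes 17 were measured. Over the scratched parental library, 3.62%, 3.50%, 7.19% and 2.24% of all tested genes passed in the libraries labelled Lingo1, Lingo2, Lingo3 and TROY KO. Gss, which joins glycine to the product of glutamate-cysteine ligase, was higher in the Lingo3 KO, at 2.31-fold (2.12 to 2.52), and Txnip, which binds and inhibits thioredoxin, was higher in the Lingo2 KO at 2.05-fold (1.93 to 2.18) and in the Lingo3 KO at 2.0-fold (1.89 to 2.12). Neither call of Txnip held with total counts as the scaling (1.96 and 1.91) or against the unscratched parental library (1.61 and 1.57), and that in the Lingo3 KO fell just short of 2 with DESeq2 size factors. Against the scratched parental library no gene of this list passed in the library labelled Lingo1 KO or the TROY KO, and none passed after the scratch. Chac1, which degrades glutathione, passed against the unscratched library in the Lingo2 KO at 2.03-fold (1.58 to 2.62) and the TROY KO at 2.12-fold (1.66 to 2.73). The list's median log2 fold was 0.15, 0.31, 0.20 and 0.04 in the libraries labelled Lingo1, Lingo2, Lingo3 and TROY KO.

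Of 38 other conjugation, quinone and export genes 26 were measured. In the libraries labelled Lingo1, Lingo2, Lingo3 and TROY KO 3.62%, 3.50%, 7.19% and 2.24% of all tested genes passed. Gstp1, a glutathione transferase, was the 1 gene of this list that passed. It was higher in the library labelled Lingo1 KO at 2.42-fold (1.68 to 3.52), the Lingo2 KO at 2.20-fold (1.52 to 3.22) and the Lingo3 KO at 3.50-fold (2.50 to 4.99), at levels of 3.57, 3.26 and 5.18 CPM, against 1.48 CPM in the scratched parental library. In the Lingo2 KO it fell short of the rule with total counts (2.10) and against the unscratched library (2.03). Its counts are uncertain, because 33.7% of the 50-base words of its transcripts also occur in other genes, Gstp2 first. The list's median log2 fold was 0.31, 0.42, 0.34 and 0.24 in the libraries labelled Lingo1, Lingo2, Lingo3 and TROY KO.

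None of the 13 measured of 14 other NADPH and pentose phosphate genes passed in any comparison. Of these 13, folds were above 1 for 13, 12, 12 and 12 in the libraries labelled Lingo1, Lingo2, Lingo3 and TROY KO, with medians of 0.29, 0.21, 0.39 and 0.22 on the log2 scale. Among all 12078 tested genes 6186, 6418, 6132 and 6459 had folds above 1 in the same 4 comparisons, which share 1 control library. None of the 10 heme and iron genes passed in any comparison, with medians between -0.04 and 0.12. Beside the absence of calls in these 2 lists, 0.0828% of all tested genes passed after the scratch and 2.24% to 7.19% in the knockouts. Of 10 superoxide and hydrogen peroxide genes 6 were measured, and Sod3, the extracellular superoxide dismutase, was higher in the library labelled Lingo1 KO at 2.48-fold (1.82 to 3.42), the Lingo2 KO at 2.93-fold (2.17 to 4.0) and the Lingo3 KO at 2.75-fold (2.04 to 3.75). Against the unscratched parental library the folds of Sod3 in the libraries labelled Lingo1 and Lingo3 KO were 1.72 and 1.90, short of the rule.

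Slc7a11 is also known as a target of ATF4, the factor of the amino acid response, so 16 genes of that response were listed, of which 15 were measured. Over the scratched parental library 2.24% to 7.19% of all tested genes passed in the knockouts. Trib3, a pseudokinase induced by ATF4, was higher in the Lingo2 KO at 2.10-fold (1.81 to 2.45) and in the Lingo3 KO at 2.30-fold (1.99 to 2.67). Against the unscratched library Trib3 also passed in the library labelled Lingo1 KO (2.26) and the TROY KO (2.19). Slc7a5, an amino acid transporter, passed against it in all 4 knockouts (2.18, 2.11, 2.59 and 2.14 in the libraries labelled Lingo1, Lingo2, Lingo3 and TROY KO). Over the scratched parental library Slc7a5 passed in none of them. Against the unscratched library, 1 control for all 4, 383, 356, 827 and 272 of 12078 tested genes passed in the same order. Chac1 and Slc7a5 were named after their values were seen. Vldlr, a lipoprotein receptor, was higher in the TROY KO at 2.01-fold (1.83 to 2.21), but not with total counts (1.91) or against the unscratched library (1.85). Slc7a3, a cationic amino acid transporter, was lower in all 4 knockouts, with 1.16, 2.02, 0.590 and 2.23 CPM in the libraries labelled Lingo1, Lingo2, Lingo3 and TROY KO, against 6.08 CPM in the scratched parental library. The list's median log2 fold after the scratch was 0.23 and none of its genes passed there.

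Gsta4 had the widest range of the members, and the 9318 other genes averaging 10 CPM or more were ordered by the root mean square distance of their centred log2 CPM from its pattern over the 6 libraries. The nearest was Gss, at a distance of 0.0365 log2 units. Gss stood at 33.5, 42.4, 56.7 and 32.4 CPM in the libraries labelled Lingo1, Lingo2, Lingo3 and TROY KO, against 24.6 CPM in the scratched and 26.0 CPM in the unscratched parental library. The order of the 6 libraries was therefore that of Gsta4. Gss overlaps Acss2 and a pair of antisense genes on the other strand, and whether strand was used in counting is not stated. The next nearest were Nfil3 at 0.0683, Mr1 at 0.0739, Hspb6 at 0.0836 and Tcf7 at 0.0893. Among the members Pgd ranked 33rd and Srxn1 45th by nearness, and Gclc was the farthest, at rank 7734.

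**Figure D4:**
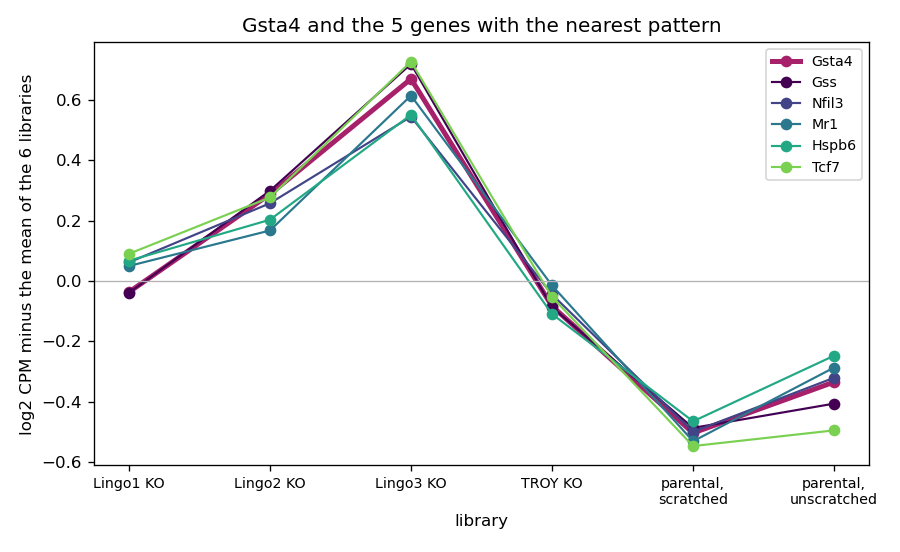
Log2 CPM minus the mean of the 6 libraries (vertical axis) for Gsta4 and the 5 genes nearest to its pattern, by library. All 6 genes are highest in the Lingo3 KO library and lowest in the scratched parental library, and Gss follows Gsta4 at a distance of 0.0365 log2 units.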

How the data were processed

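Messenger RNA libraries of 6 MLE12 cultures, 1 per group, were compared. The authors deposited raw read counts per Ensembl gene with HTSeq's summary lines, and a table without a stated unit whose values behaved as RPKM: in 7538 well-counted genes after removing a factor for each gene and each library from their ratio to the counts, the residual SD was 0.000719 log2 units. The deposited log2 ratios of that table differed from those computed here by at most 0.0239 for the members. Per the submitters' processing notes, Trimmomatic 0.39, STAR, HTSeq and edgeR and build GRCm38 were used; their settings are not given here. No-feature reads were 4.98% to 8.02% of the assigned, ambiguous and no-feature reads together and stayed out of library sizes.

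Counts were scaled with TMM (edgeR 4.0.16, R 4.3.3) and given as CPM, matched by identifier to GENCODE M21 (45229 of 46078). Intervals came from scipy 1.17.1. Depth was 28109825 to 30776294 counts, and a floor of 3 counts is 0.0984 to 0.108 CPM. Rules were tried on simulated counts with Poisson error only, which cannot show how they behave under the spread between cultures. The RPKM scale served to compare genes within a library. Members, lists and rules were chosen with earlier results of these data known. Named genes are the members, the regulators, genes of each list past the size rule (at most 6 per list), partners in ratios, and the 5 nearest patterns. Alternatives were DESeq2 1.42.0 size factors, total counts, other filters, a 1.5-fold rule, the unscratched control, RPKM ratios and other motifs.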

Additional observations from a re-analysis of the deposited data

How the results depend on the processing

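No paired analysis was possible because each group had 1 library. With total counts as the scaling, 1 member (Gsta4) in place of 2 passed in the Lingo3 KO, and 6 in place of 7 members had all 4 knockout libraries above both parental libraries, G6pdx being lost; this check of order was chosen after seeing the data. Total counts moved 23 of 50 member folds outside their intervals, and DESeq2 size factors moved 0 of 50. Genes higher and lower in the library labelled Lingo1 KO numbered 235 and 202, but 198 and 238 under total counts, and 300 and 483 without a filter. In the Lingo2 KO they numbered 256 and 167, but 351 and 404 with no filter. In the TROY KO they numbered 128 and 142, but 79 and 39 with a 5 CPM minimum and 158 and 404 with no filter. Under the 1.5-fold rule 1 member passed after the scratch and 2 in the Lingo2 KO. The count of all genes past the rule was 10 after the scratch and 437, 423, 868 and 270 in the libraries labelled Lingo1, Lingo2, Lingo3 and TROY KO. It was 57, 1245, 1209, 2161 and 922, in the same order, under the 1.5-fold rule. It was 2, 207, 185, 461 and 118 when 5 CPM was the minimum mean, and 160, 783, 755, 1487 and 562 with no filter. Against the unscratched parental library 32 of 40 member folds left their interval, and Srxn1 joined the calls. No called member changed side of 1, while Txnrd1, never called, did so in the TROY KO (1.09, against 0.988) and the Lingo2 KO (1.001, against 0.908). The core motif with 1 more letter, A, was found in 2 of 7 members and the AP-1 core in 1. Ratios relative to the scratched parental library were equal in RPKM by construction, so RPKM gives no separate check of them. The cause of these shifts was not tested. Depth limits little here, since each member had at least 339 counts per library, while the spread between cultures is unknown.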
